A study of Homo sapiens with 72 samples.

Results

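The genes described here are 50 genes of DNA replication and of the passage from G1 into S phase, followed across HEK293 Flp-In T-REx cells that were irradiated with UV and then given an ATR inhibitor. They were taken by symbol from the table of unnormalised counts, which holds 19324 genes, and all 50 were among the 15470 genes with enough counts to test. HEK293 is an established human cell line of embryonic kidney origin, and the Flp-In T-REx derivative carries an integration site and a repressor for inducible transgenes. The 72 libraries come from 4 lines: the unedited line (WT), 1 line without CSB (CSB_KO), and, as STK19_KO1 and STK19_KO2, 2 lines without STK19. ERCC6 encodes CSB, a factor of transcription-coupled nucleotide excision repair, and STK19 acts in the same repair pathway. Each line was sampled without treatment (0 h), at 3 h after UV, and at 4 h and 20 h with the solvent DMSO or with the ATR inhibitor VE-821 at 3 µM (ATRi), with 3 replicates in each of the 24 groups. Hours run from irradiation in the design text but from addition of the inhibitor in the sample descriptions, so ATRi was compared with DMSO only at the same labelled time. No later group without UV was analysed here, so UV, time in culture and solvent cannot be told apart in comparisons with 0 h. CSB_KO is a single line, so its clone cannot be told from its knockout.

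Replication starts in G1, when the origin recognition complex (ORC), CDC6 and CDT1 load the MCM helicase onto origins. At S phase entry the kinases CDC7-DBF4 and cyclin E-CDK2 recruit CDC45 and GINS to the helicase, and the polymerases with the clamp PCNA, its loader RFC and the single-strand binding protein RPA then copy the DNA. Most of these genes are known targets of E2F transcription factors, which the RB family holds back until late G1. ATR is the kinase that responds to exposed single-stranded DNA at stalled forks and restrains the firing of further origins.

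E2F sites are the regulatory sequence that many of these promoters are known for, so the letters were looked up before the expression values are given. RefSeq promoters (GRCh38.p14) were at hand for 42 of the 50 genes. In the 250 bases before the start, 13 of these 42 (31.0%) held TTTCCCGC, TTTGGCGC or TTTCGCGC on either strand, against 816 of 35116 promoters of all genes (2.32%). The 13 are ORC3, CDT1, MCM3, MCM6, GINS2, CDC7, POLA1, POLA2, POLE, RFC3, LIG1, TYMS and E2F1. MCM6, a helicase subunit, had 4 matches, 2 of which overlap in the stretch printed here, and POLA1, the catalytic subunit of DNA polymerase alpha, had 1. The matched letters are in capitals, each strand is given 5′ to 3′ in the sense of its gene, and the first stretch (chr2:135876444-135876563, minus strand) ends at the start of MCM6 while the second (chrX:24693753-24693872, plus strand) ends 45 bases before that of POLA1.
MCM6: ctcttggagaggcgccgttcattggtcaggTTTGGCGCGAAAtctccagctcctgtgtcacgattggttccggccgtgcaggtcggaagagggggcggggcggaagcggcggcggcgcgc
POLA1: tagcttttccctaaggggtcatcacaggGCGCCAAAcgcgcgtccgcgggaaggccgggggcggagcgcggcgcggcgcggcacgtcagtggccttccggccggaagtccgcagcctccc

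Shorter windows around the match show the same letters in genes of other roles: E2F1 itself (chr20:33686387-33686416, minus strand), the loading factor CDT1 (chr16:88803743-88803772, plus strand), the helicase cofactor GINS2 (chr16:85688967-85688996, minus strand) and the leading-strand polymerase POLE (chr12:132687343-132687372, minus strand). ORC3 (chr6:87590105-87590134, plus strand) and RFC3 (chr13:33818083-33818112, plus strand) are shown because they hold the letters but were the 2 of the 13 genes not called higher with ATRi at 20 h in WT.
E2F1: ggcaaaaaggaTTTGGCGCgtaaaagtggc
CDT1: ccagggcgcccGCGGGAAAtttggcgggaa
GINS2: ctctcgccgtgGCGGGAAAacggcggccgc
POLE: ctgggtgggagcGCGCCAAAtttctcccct
ORC3: ctgcagccgcgagggcgcGCGGGAAAtccc
RFC3: atttggagctcGCGGGAAAacttgtctctg

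The CCAAT box was present in 23 of the 42 promoters (54.8%) against 11240 of all promoters (32.0%), on either strand. TTTGAA, the cell cycle genes homology region of mitotic promoters, was present in 1 of 42 (2.38%) against 4677 of all promoters (13.3%). The median GC content of the 42 windows was 66.6%, against 58.0% over all promoters, and the difference in base composition bears on each of these shares.

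Depth ran from 36.5 to 212.9 M counts per library (median 56.3 M). Levels are given in CPM (counts divided by the library's total counts, times 1e+06) after scaling by the trimmed mean of M values, and changes as log2 values with their standard errors from 1 fit of edgeR over all libraries. Calls were made where the p adjusted by Benjamini and Hochberg's method over all genes tested was under 0.05, and "rose" and "fell" are used only of called genes. The labels do not say whether replicates were separate cultures, so the spread that p-values measure is only that between these samples. ERCC6 was lower in CSB_KO than in WT at 0 h by a log2 change of -1.77 ± 0.08 (edgeR adjusted p = 4.01e-27), whereas the RNA of STK19 in its knockouts differed by -0.12 ± 0.07 and -0.15 ± 0.07 (edgeR adjusted p = 0.187 and 0.0882), so STK19 RNA does not check those labels. Of the embryonic kidney and neural genes used as HEK293 markers, VIM, INA and LIN28B were at 652 to 1291, 33.5 to 127 and 9.79 to 153 CPM over the libraries, whereas PAX2, LHX1, EYA1 and NEFM were low (at most 5.88, 5.57, 9.06 and 1.81 CPM). Of the blood genes PTPRC, CD3E and HBB stayed at or below 0.405 CPM and CD14 reached 29.8. Of the fibroblast genes COL1A2, DCN and LUM stayed at or below 0.776 CPM, while COL3A1 reached 4.29 and COL1A1 18.4. Of the mature kidney tubule genes SLC34A1, AQP2 and SLC12A1 stayed at or below 0.087 CPM, and LRP2 was at 2.12 to 26.5. The part of these cell types in the results was not tested. There were 5 libraries that stood apart from the other 2 of their group, and they are replicate 1 of WT in the 0 h, 3 h and 4 h DMSO groups and, in STK19_KO1, replicate 3 of the 3 h group and replicate 1 of the 4 h ATRi group. A library was taken to stand apart where the chi-square per gene of its counts was over 20 against each of the other 2. This measure grows with depth. Pairs over 20 that did not meet this rule, such as replicates 1 and 2 of STK19_KO1 with ATRi at 20 h (26.9), were kept. Some of the values that rest on the 5 libraries are also given without them, and the others are not.

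Per kilobase of exon at 0 h in WT, the level was highest for PCNA (231.4 CPM per kb), MCM7 (192.8), MCM3 (110.9) and TYMS (96.44), the thymidylate synthase. It was lowest for ORC4 (5.432), POLE2 (5.469), the accessory subunit of polymerase epsilon, and GINS3 (6.722). Over all groups the highest mean, not scaled by length, was that of MCM7 with ATRi at 20 h in CSB_KO, at 1862 CPM (1768 in WT), and the lowest that of POLE2 at 20 h DMSO in CSB_KO, at 5.38 CPM.

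Before irradiation the edited lines differed from WT in part of these genes. In CSB_KO 14 of the 50 were higher (19.1% of all tested genes were) and 5 lower (15.7%). In STK19_KO1 18 were higher (29.5%) and 11 lower (19.2%), and in STK19_KO2 14 were higher (26.6%) and 9 lower (20.7%). These shares are near those of all genes in STK19_KO2 and above them for the higher genes of CSB_KO and STK19_KO1, but the split depends on the scaling in the STK19 lines. With upper quartile scaling it was 10 higher and 18 lower in STK19_KO1 and 11 higher and 13 lower in STK19_KO2, and with library totals alone 14 higher and 15 lower in STK19_KO1. Without replicate 2 of every group, 12 genes were called in CSB_KO in place of 19.

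In all 3 edited lines 9 genes were higher, namely CHAF1A, GINS2, LIG1, MCM3, MCM4, ORC1, RFC3, RPA1 and UHRF1. The 3 comparisons share the WT libraries at 0 h, of which replicate 1 stood apart. The share of all tested genes called the same way in every line was not counted, here or in the later comparisons. LIG1, the ligase that seals Okazaki fragments, stood at 70.5, 78.6 and 80.6 CPM in WT, at 124, 126 and 128 in CSB_KO, at 154, 166 and 151 in STK19_KO1 and at 119, 112 and 113 in STK19_KO2. No library of an edited line overlapped WT, and the log2 difference was 0.72, 1.04 ± 0.07 and 0.58 (edgeR adjusted p = 1.60e-19 in STK19_KO1). RPA1, the large subunit of RPA, was higher by 0.64, 0.69 and 0.80, and CHAF1A, the large subunit of the histone chaperone CAF-1, by 0.66, 0.74 and 0.67. UHRF1, which brings maintenance methylation to new DNA, was higher by 0.47, 0.40 and 0.12, and the last of these lost its call without the libraries that stood apart (0.07). ORC5 was the single gene lower in all 3, by -0.19, -0.27 and -0.23.

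Other differences varied in size or sign between the edited lines. CHAF1B, the middle subunit of CAF-1, stood at 55.1, 51.9 and 56.5 CPM in STK19_KO2 against 118, 109 and 112 in WT, a log2 difference of -1.05 ± 0.04 (edgeR adjusted p = 4.17e-29), whereas it was 0.29 higher in CSB_KO. RFC4, a clamp loader subunit, was higher by 0.76 in STK19_KO1 and 0.66 in STK19_KO2 and was not called in CSB_KO. TYMS was lower in CSB_KO (-0.26) and higher in STK19_KO1 (0.54) and STK19_KO2 (0.33). CDC6 was higher by 0.40 in CSB_KO and 0.42 in STK19_KO2 and lower by -0.13 in STK19_KO1. CDC45 and GINS1 were lower in both STK19 lines, at -0.41 and -0.19 for CDC45 and -0.28 and -0.37 for GINS1.

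**Figure D1:**
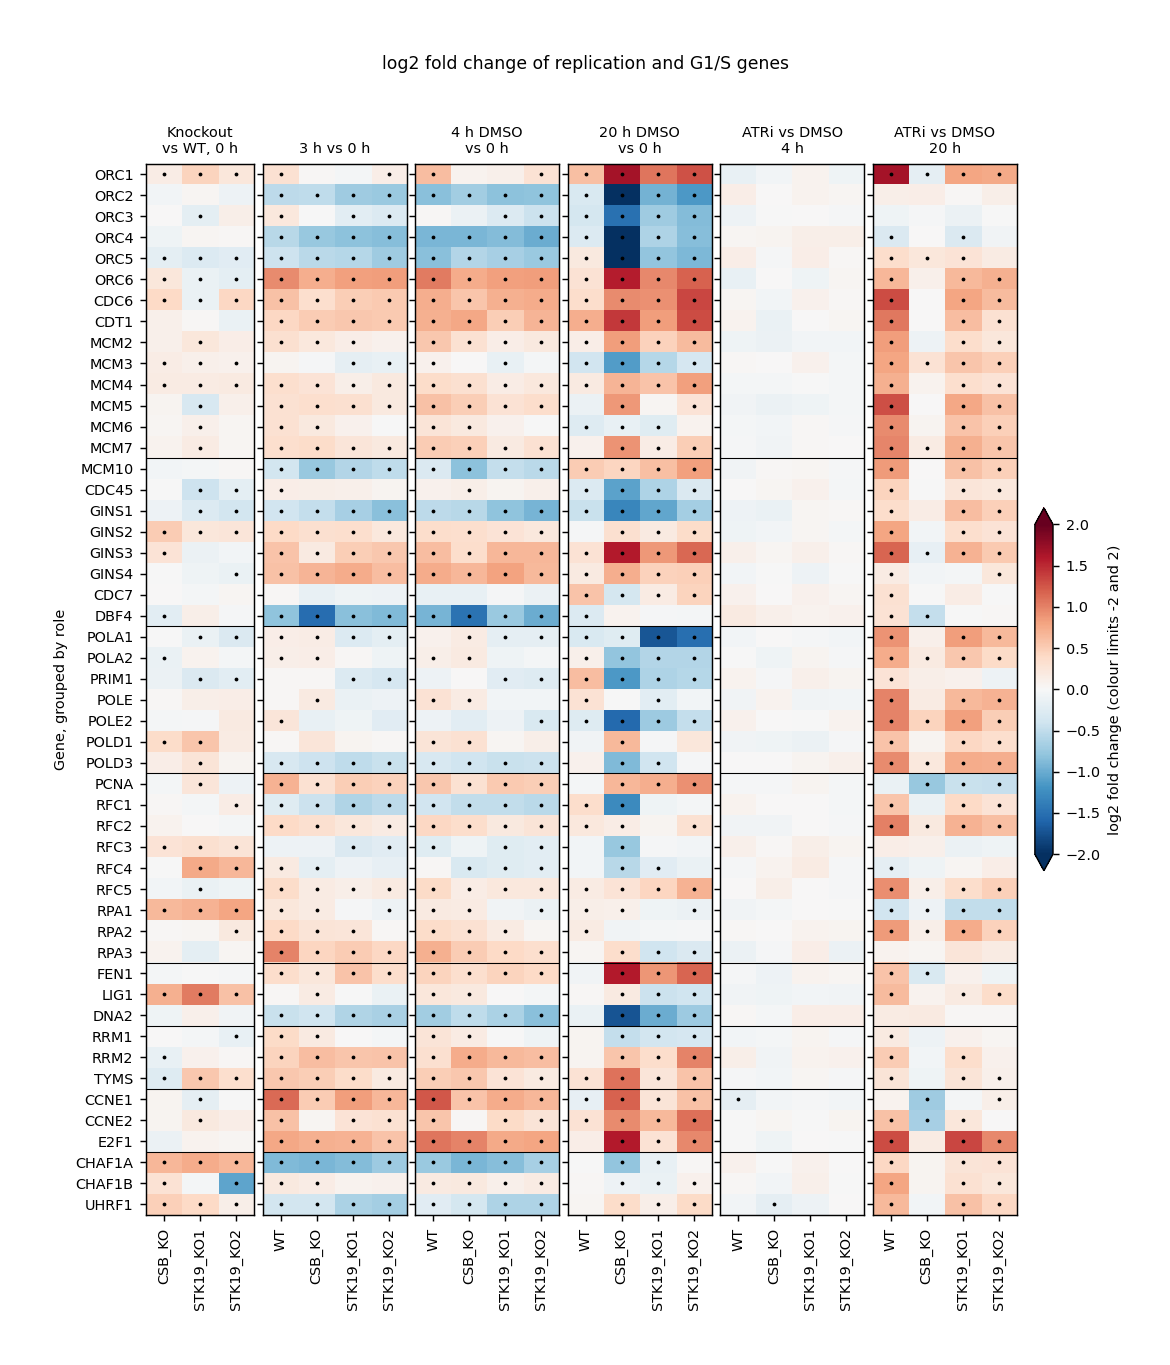
Log2 change of each of the 50 genes (rows, ordered by role) in each comparison and line (columns), with colour running from lower to higher and a dot where the adjusted p was under 0.05. The columns of 3 h and 4 h resemble each other, and the columns of ATRi at 20 h are mostly higher in WT, STK19_KO1 and STK19_KO2 and close to 0 in CSB_KO.

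At 3 h after UV some of the genes rose and others fell, and more rose than fell in WT and, except with library totals alone, in CSB_KO. In WT 32 of the 50 rose (33.6% of all tested genes did) and 11 fell (28.8%), and in CSB_KO 28 rose (32%) and 12 fell (29.3%). In STK19_KO1 21 rose (29.9%) and 16 fell (30.6%), and in STK19_KO2 20 rose (29.1%) and 17 fell (28.5%). The median log2 change was 0.23, 0.16, 0.04 and 0.01 in WT, CSB_KO, STK19_KO1 and STK19_KO2, against 0.06, 0.06, 0.03 and 0.05 over all tested genes. With library totals alone the split was 20 and 16 in WT, 16 and 16 in CSB_KO and 18 and 21 in STK19_KO2. Without the libraries that stood apart it was 29 and 12 in WT, 30 and 14 in CSB_KO, 21 and 17 in STK19_KO1, then 19 and 23 in STK19_KO2. That scaling moved the median of all genes by -0.37 to 0.16 over the comparisons, and upper quartile scaling by -0.11 to 0.16.

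In all 4 lines 18 genes rose at 3 h. Among the regulators, CCNE1, which encodes cyclin E1, stood at 58.9, 56.3 and 56.8 CPM at 0 h in WT and at 126, 124 and 128 at 3 h. In CSB_KO it went from 59.5, 60.8 and 57.9 CPM to 85.8, 82.3 and 85.4. All irradiated libraries lay above the untreated ones in both lines, and the log2 change was 1.14, 0.51 ± 0.04, 0.84 and 0.66 over WT, CSB_KO, STK19_KO1 and STK19_KO2. E2F1, the activator of S phase genes, rose by 0.77, 0.71, 0.69 and 0.56 in the same order. Cyclin E2 (CCNE2) rose by 0.59 in WT, or 0.40 without the libraries that stood apart, by 0.28 and 0.31 in the STK19 lines, and was not called in CSB_KO (0.04 ± 0.08, edgeR adjusted p = 0.742).

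Among the licensing genes that rose in all 4 lines were ORC6, CDC6, CDT1, MCM4, MCM5 and MCM7. ORC6, the smallest ORC subunit, went from 61.1, 57.2 and 56.3 CPM to 130, 99.7 and 106 in WT, and its log2 change was 0.94, 0.73, 0.81 and 0.84 over the lines. The highest of these 3 h values is a library that stood apart, and the other 2 were also above every untreated library. CDC6 rose by 0.59, 0.34, 0.49 and 0.52, and CDT1 by 0.41, 0.51, 0.54 and 0.52. MCM2 rose by 0.33, 0.21 and 0.13 in WT, CSB_KO and STK19_KO1 and was not called in STK19_KO2 (0.08).

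The remaining genes that rose in all 4 lines were GINS2, GINS3, GINS4, PCNA, RFC2, RFC5, RPA3, FEN1, RRM2 and TYMS. RRM2, the small subunit of ribonucleotide reductase, rose by 0.44, 0.62, 0.56 and 0.57, and GINS4 and RPA3 had mean changes of 0.66 and 0.59 over the lines. PCNA stood at 346, 334 and 341 CPM at 0 h in WT and at 690, 475 and 496 at 3 h. Replicate 1 was the highest and is a library that stood apart, so the log2 change of 0.70 was 0.51 without such libraries, and that of RPA3 in WT was 0.68 in place of 0.99. In CSB_KO, STK19_KO1 and STK19_KO2 PCNA rose by 0.30, 0.50 and 0.47.

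In all 4 lines 11 genes fell at 3 h, namely CHAF1A, DBF4, DNA2, GINS1, MCM10, ORC2, ORC4, ORC5, POLD3, RFC1 and UHRF1. DBF4, the activating subunit of the CDC7 kinase, went from 42.9, 38.4 and 39.97 CPM to 28.7, 20.6 and 20.3 in WT and from 35.8, 33.1 and 35.6 to 12.8, 11.4 and 11.9 in CSB_KO. No irradiated library reached the untreated level, and the log2 change was -0.80, -1.53 ± 0.09, -0.84 and -0.89 over the lines (edgeR adjusted p = 4.04e-23 in CSB_KO). CHAF1A fell by -0.88 ± 0.05, -0.92, -0.86 and -0.73. ORC4 (chr2:147930396-148021604) fell by -0.55 in WT, or -0.78 without the libraries that stood apart, and by -0.76, -0.81 and -0.86 in the edited lines, and UHRF1 by -0.37, -0.37, -0.63 and -0.68. POLA1 rose in WT (0.13) and CSB_KO (0.16) and fell in STK19_KO1 (-0.27) and STK19_KO2 (-0.19), and its value in WT was -0.08 with library totals alone.

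The counts by role at 3 h are of small groups and are read against the shares of all tested genes given above, from 29.1% to 33.6% rising and from 28.5% to 30.6% falling. Licensing genes that rose or fell were 10 and 3 of 14 in WT, 8 and 3 in CSB_KO and 7 and 5 in both STK19 lines. Among the 7 polymerase and primase genes 3 rose and 1 fell in WT and in CSB_KO, and 0 rose and 3 fell in each STK19 line by edgeR. Clamp, loader and RPA genes that rose or fell were 7 and 1 of 9 in WT, 6 and 2 in CSB_KO, 5 and 2 in STK19_KO1, then 4 and 3 in STK19_KO2. All 3 G1/S regulators rose in WT and in both STK19 lines, and 2 of 3 rose in CSB_KO.

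Shorter genes had the higher changes at 3 h, as over all genes. In WT and CSB_KO, but not in the STK19 lines, the longest of the 50 lacked the negative median of all long genes. Of the 15 genes under 20 kb, 15 rose and 0 fell at 3 h in WT by edgeR, with a median log2 change of 0.54, against 0.35 over the 5628 genes of that span. Of the 8 genes over 80 kb, 4 rose and 3 fell, with a median of 0.01 against -0.39 over 3905 genes, and in CSB_KO the median of these 8 was 0.03 against -0.28. In STK19_KO1 and STK19_KO2 their median was -0.28 and -0.21, against -0.51 and -0.46, and 3 rose and 5 fell in each. The 15 genes of 40 to 80 kb had a median of 0.02 in WT, with 6 that rose and 7 that fell, against -0.11 over all genes of that span. Across the 50 genes Spearman's rho between span and log2 change was -0.56, -0.54, -0.60 and -0.60 in WT, CSB_KO, STK19_KO1 and STK19_KO2, and across all tested genes -0.50, -0.46, -0.57 and -0.60. These are descriptions across genes, which share libraries and are not independent replicates. The share of all genes of each span that rose or fell was not counted, so only the medians can be compared. Spans run between the deposited gene coordinates, which can begin far from the RefSeq start, as for GINS3. The part of this in the span groups was not tested.

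The 4 h DMSO samples moved in much the same way as those at 3 h. In WT 31 of the 50 were above 0 h (35% of all tested genes) and 12 below (31.3%), and in CSB_KO 30 (33.6%) and 12 (30.2%). In STK19_KO1 22 were above (27.9%) and 17 below (30%), and in STK19_KO2 22 above (31.6%) and 18 below (29.8%). The split was 22 and 19 in WT and 19 and 17 in CSB_KO with library totals alone, and 25 and 12 in STK19_KO1 and 25 and 13 in STK19_KO2 with upper quartile scaling. In all 4 lines 20 genes rose, namely the 18 of 3 h with CHAF1B and MCM2, and the same 11 fell. E2F1 was higher by 1.06 ± 0.07, 0.99, 0.76 and 0.78, and DBF4 lower by -0.92, -1.47, -0.74 and -0.9997. Both time points were set against the same 0 h libraries.

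A direct test asked whether the change at 3 h differed between lines. Relative to WT it was more negative for 11 of the 50 genes in CSB_KO (8.3% of all tested genes) and more positive for 0 by edgeR (1.48%), with a median difference of -0.09 against -0.02 over all genes. For the mean of the STK19 knockouts it was more negative for 27 (17.1%) and more positive for 0 (10.1%), with a median of -0.19 against -0.04. At an unadjusted p under 0.05, 1 gene was more positive and 17 more negative in CSB_KO, and 1 and 32 in the STK19 knockouts, and DESeq2 called 13 and 30 more negative. With library totals alone the counts were 1 more positive and 7 more negative for CSB_KO and 4 and 6 for STK19, and with upper quartile scaling 4 and 17 for STK19. Without replicate 2 of every group they were 6 and 17 more negative, and without replicate 3 they were 7 and 18.

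DBF4 fell further in CSB_KO than in WT, with a difference of -0.73 ± 0.12 (edgeR adjusted p = 6.49e-06), and CCNE1 rose less there, by -0.63 ± 0.05 (edgeR adjusted p = 6.82e-14). ORC3 moved in opposite directions, at 0.22 in WT and -0.24 as the mean of the STK19 knockouts, a difference of -0.46 ± 0.08 (edgeR adjusted p = 1.12e-05). RPA3, the smallest RPA subunit, differed by -0.57 in CSB_KO and -0.53 for STK19, and by -0.27 and -0.28 without the libraries that stood apart. The difference of POLE2 for STK19 (-0.40) was not called without them (-0.19, edgeR adjusted p = 0.213), nor were those of CCNE2 (-0.30, then -0.11) and PCNA (-0.22, then -0.08).

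**Figure D2:**
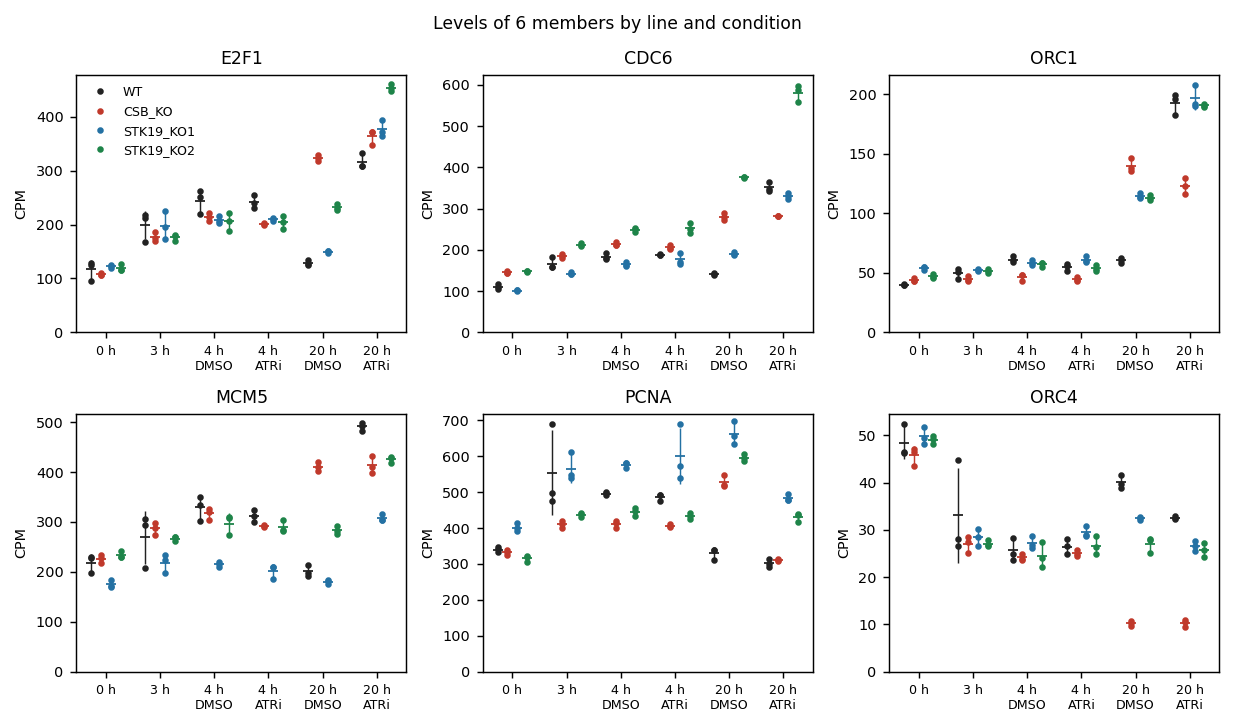
Level in CPM (TMM-scaled) of E2F1, CDC6, ORC1, MCM5, PCNA and ORC4 by line and condition, with a point for each library and the mean ± SD of 3 replicates. At 20 h ORC1 is near 60 CPM with DMSO and above 180 with ATRi in WT, whereas in CSB_KO it lies between 116 and 146 CPM under either treatment.

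At 20 h with DMSO the changes from 0 h covered a wider range in the edited lines than in WT. In WT 21 of the 50 were above 0 h (30% of all tested genes) and 11 below (25.4%), with log2 changes from -0.45 to 0.73. In CSB_KO 26 were above (38.3%) and 21 below (40.5%), with changes from -2.29 to 1.67. In STK19_KO1 21 were above (32.1%) and 21 below (37%), with changes from -1.71 to 1.08, and in STK19_KO2 24 above (33.8%) and 16 below (37.8%), with changes from -1.52 to 1.34. The shares below 0 h are near those of all genes and the shares above 0 h exceed them, but the split in CSB_KO was 19 and 26 with library totals alone. The summed level of the 50 genes was 7196 ± 45.8 CPM (SD, n = 3) at 0 h and 7592 ± 19.8 at 20 h DMSO in WT, and 7752 ± 52.0 and 10446 ± 75.8 in CSB_KO.

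The 12 genes that rose at 20 h in every line were CCNE2, CDC6, CDT1, GINS3, GINS4, MCM10, MCM2, MCM4, ORC1, ORC6, RFC5 and TYMS. ORC1, the subunit of ORC that is lost from chromatin in S phase, stood at 39.9, 40.6 and 39.5 CPM at 0 h in WT and at 61.0, 58.2 and 62.3 at 20 h. In CSB_KO it went from 43.2, 45.6 and 43.5 CPM to 135, 146 and 138. Every library at 20 h was above every library at 0 h, and the log2 change was 0.60, 1.67 ± 0.05, 1.08 and 1.27 over WT, CSB_KO, STK19_KO1 and STK19_KO2. CDT1 rose by 0.73, 1.42, 0.83 and 1.303, ORC6 by 0.29, 1.56, 0.97 and 1.18, CDC6 by 0.36, 0.94, 0.91 and 1.34, and CCNE2 by 0.29, 0.94, 0.65 and 1.11. MCM2 rose by 0.83, 0.46 and 0.63 in the edited lines and by 0.13 in WT, where it was not called without the libraries that stood apart (0.07).

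Several genes rose in the edited lines but not in WT. E2F1 stood at 107, 110 and 107 CPM at 0 h in CSB_KO and at 323, 319 and 330 at 20 h, a log2 change of 1.59 ± 0.08 (edgeR adjusted p = 3.73e-27). In WT its values were 96.1, 129 and 125 CPM and then 126, 134 and 126, and the change of 0.14 ± 0.07 was not called (edgeR adjusted p = 0.107). FEN1, the flap endonuclease of Okazaki fragments, went from 144, 146 and 149 CPM to 450, 421 and 442 in CSB_KO, whereas WT held 146, 152 and 154 and then 149, 148 and 135. These levels overlapped in WT and were far apart in CSB_KO, with log2 changes of -0.07, 1.58, 0.88 and 1.16 over the lines. PCNA rose by 0.67, 0.72 and 0.91 and RRM2 by 0.56, 0.35 and 0.99 in the edited lines, with -0.04 and 0.06 in WT, neither called. CCNE1 fell in WT by -0.17 and rose in the edited lines (1.17, 0.26 and 0.58).

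The 8 genes that fell at 20 h in every line were CDC45, GINS1, MCM3, ORC2, ORC3, ORC4, POLA1 and POLE2. ORC2, ORC3 and ORC4 fell by -0.30, -0.35 and -0.27 in WT and by -2.03, -1.49 and -2.17 in CSB_KO. ORC5 (chr7:104126341-104208047) went from 42.5, 42.8 and 41.6 CPM to 8.21, 8.56 and 9.10 in CSB_KO, a log2 change of -2.29 ± 0.08 (edgeR adjusted p = 3.10e-33), while in WT it rose by 0.19. In CSB_KO ORC thus held both the gene that rose most, ORC1, and the gene that fell most, ORC5, and ORC6 rose in the same libraries. POLA1 went from 129, 123 and 119 CPM to 37.8, 37.6 and 38.3 in STK19_KO1 and from 113, 110 and 111 to 38.7, 41.1 and 37.3 in STK19_KO2, with log2 changes of -1.71 ± 0.06 and -1.52. It fell less in WT (-0.31) and in CSB_KO (-0.24). PRIM1, the catalytic subunit of primase, rose by 0.62 ± 0.07 in WT and fell by -1.15, -0.61 and -0.57 in the edited lines, and DNA2, a nuclease of long flaps, changed by -0.14 in WT, not called, and fell by -1.73, -0.99 and -0.73.

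By role, 3 of the 7 polymerase and primase genes rose and 2 fell in WT at 20 h, where 30% of all tested genes rose and 25.4% fell, while 1 rose and 5 fell in CSB_KO, against 38.3% and 40.5%. In the STK19 lines 0 of them rose by edgeR and 6 and 4 fell, where 37% and 37.8% of all tested genes fell. All 3 G1/S regulators rose in each edited line, and 1 rose and 1 fell in WT. Licensing genes rose and fell in 7 and 5 of 14 cases in WT, 8 and 6 in CSB_KO, then 7 and 6, and 8 and 5, in the STK19 lines.

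**Figure D3:**
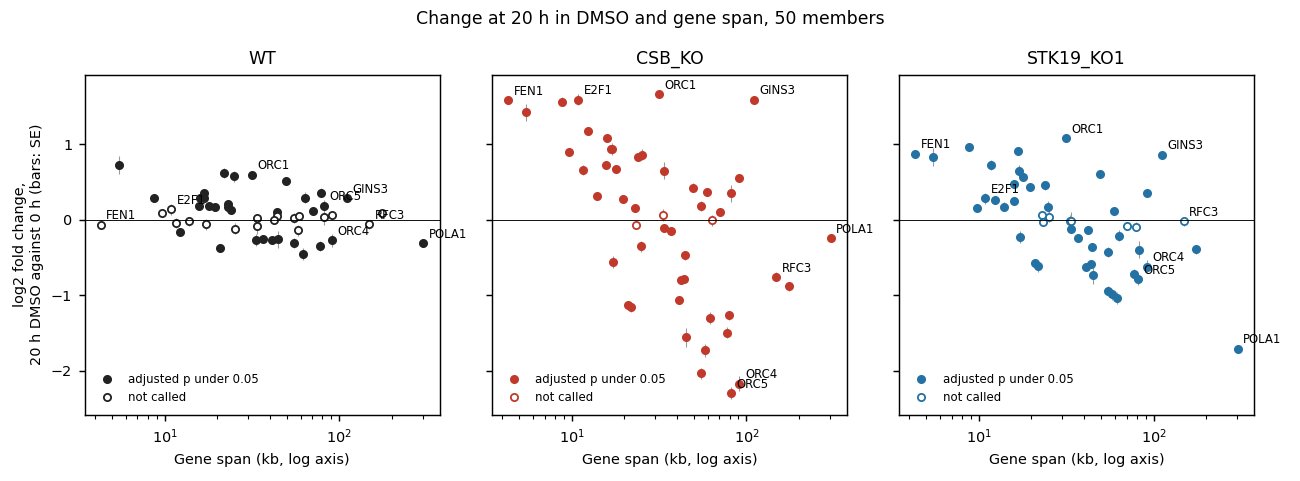
Log2 change at 20 h DMSO against 0 h (vertical, bars show the standard error) by gene span in kb (horizontal, log axis) for the 50 genes in WT, CSB_KO and STK19_KO1. In CSB_KO and STK19_KO1 14 of the 15 genes under 20 kb lie among the genes that rose, and ORC4 and ORC5, at 91.2 and 81.7 kb, lie near the bottom of CSB_KO. The share of all genes under 20 kb that rose was not counted.

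Span was again related to the change. In CSB_KO 14 of the 15 genes under 20 kb rose and 1 fell at 20 h, with a median log2 change of 0.94 against 0.64 over all genes of that span. Of the 15 genes of 40 to 80 kb, 4 rose and 10 fell, with a median of -0.79 against -0.30, and of the 8 over 80 kb, 3 rose and 5 fell, with a median of -0.50 against -1.08. Here too the share of all genes of each span that rose or fell was not counted. FEN1 (chr11:61792911-61797238, 4.33 kb), ORC6 (chr16:46689643-46698394, 8.75 kb) and E2F1 (chr20:33675477-33686385, 10.9 kb) are among the short genes that rose. GINS3, over 80 kb by its deposited coordinates (chr16:58295080-58406147), rose as well. Its RefSeq promoter window (chr16:58392221-58392520, plus strand) lies well inside that span, so the length from the RefSeq start is much shorter. Spearman's rho was -0.25, -0.57, -0.59 and -0.59 across the 50 genes in WT, CSB_KO, STK19_KO1 and STK19_KO2, and -0.42, -0.56, -0.49 and -0.51 across all tested genes.

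The test of the difference between lines at 20 h called most of the genes, as it did for all genes to a lesser share. The change in CSB_KO was higher than that in WT for 21 of the 50 (30.9% of all tested genes) and lower for 20 (36.3%), and for the STK19 knockouts higher for 22 (22.8%) and lower for 20 (32.7%). With library totals alone the counts were 15 higher and 27 lower for CSB_KO and 15 and 25 for STK19. In CSB_KO the differences furthest below 0 were those of ORC5 (-2.48), ORC4 (-1.89) and PRIM1 (-1.77), and those furthest above 0 were FEN1 (1.65), E2F1 (1.45) and CCNE1 (1.34). For STK19 they were POLA1 (-1.30), PRIM1 (-1.21) and ORC5 (-1.03) below, and FEN1 (1.09), PCNA (0.86) and ORC6 (0.79) above. The difference of CDT1 for STK19 was 0.34, or 0.52 without the libraries that stood apart.

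At 4 h few genes were called with the inhibitor, among these 50 as among all genes. Of the 50, 1 was called in WT (2.66% of all tested genes were called), 1 in CSB_KO (2.97%), 0 in STK19_KO1 (0.905%) and 0 in STK19_KO2 (0.22%) by edgeR. The genes were CCNE1 in WT (-0.19 ± 0.04, edgeR adjusted p = 0.000876) and UHRF1 in CSB_KO (-0.19 ± 0.05, edgeR adjusted p = 0.0363). At an unadjusted p under 0.05 there were 7, 3, 6 and 1 genes, DESeq2 called 1, 1, 0 and 0, and no log2 difference was larger in size than 0.185, 0.186, 0.162 and 0.141 in the 4 lines. Without the 5 libraries that stood apart, 10 genes were called in WT (4 higher, 6 lower) and 3 in CSB_KO. With library totals alone 2 genes were higher and 1 lower in WT.

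At 20 h the inhibitor raised most of these genes in WT and in both STK19 knockouts. In WT 40 of the 50 were higher with ATRi than with DMSO (30.2% of all tested genes) and 3 lower (33.7%), with a median log2 difference of 0.61 against -0.03 over all genes. In STK19_KO1 34 were higher (31.5%) and 3 lower (30.1%), with a median of 0.34 against 0.02, and in STK19_KO2 33 were higher (30.5%) and 2 lower (27.7%), with a median of 0.28 against 0.03. In CSB_KO 9 were higher (14.1%) and 8 lower (17.5%), with a median of 0.02 against 0.01. The counts of CSB_KO were 16 higher and 12 lower without the libraries that stood apart, 18 and 7 with upper quartile scaling and 16 and 7 with library totals alone, and 8 genes were called without replicate 2. The summed level in WT rose from 7592 ± 19.8 to 12393 ± 133 CPM (SD, n = 3), while in CSB_KO it was 10446 ± 75.8 with DMSO and 10382 ± 159 with ATRi.

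**Figure D4:**
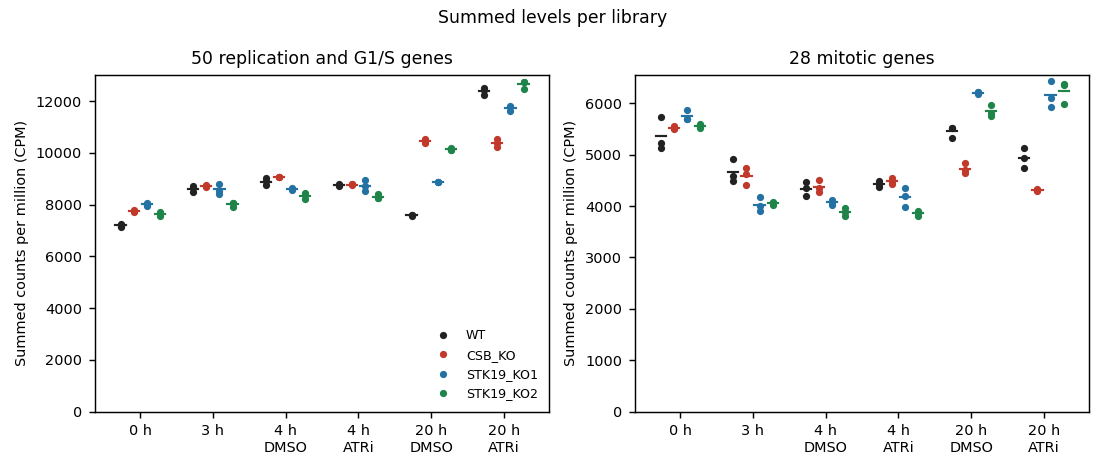
Summed CPM of the 50 genes and of 28 mitotic genes in every library, by line and condition. Points are libraries and short lines are means of 3 replicates. At 20 h the 50 genes sum to means of 12393, 11736 and 12657 CPM with ATRi in WT, STK19_KO1 and STK19_KO2, above every DMSO library of the same line, and in CSB_KO the DMSO and ATRi libraries overlap.

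ORC1 had the largest difference in WT and E2F1 the largest in both STK19 knockouts. Among the licensing genes, ORC1 stood at 61.0, 58.2 and 62.3 CPM with DMSO and at 199, 195 and 183 with ATRi in WT, a log2 difference of 1.67 ± 0.05 (edgeR adjusted p = 2.33e-34). CDC6 went from 143, 140 and 142 to 364, 344 and 348 CPM, and CDT1 from 225, 258 and 240 to 505, 497 and 499. MCM5 went from 192, 214 and 198 to 482, 499 and 493 CPM. No ATRi library overlapped the DMSO libraries for any of the 4 genes, and their log2 differences in WT were 1.67, 1.31, 1.05 and 1.29. In STK19_KO1 they were 0.78, 0.79, 0.62 and 0.77 and in STK19_KO2 0.75, 0.63, 0.30 and 0.59. MCM2 was higher by 0.83, 0.35 and 0.22 in WT, STK19_KO1 and STK19_KO2. Against 30.2% of all tested genes that rose and 33.7% that fell in WT, 11 of the 14 licensing genes rose and 1 fell there. The counts were 11 and 1 in STK19_KO1, 10 and 0 in STK19_KO2 by edgeR, and 3 and 1 in CSB_KO.

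E2F1 stood at 126, 134 and 126 CPM with DMSO and at 334, 309 and 308 with ATRi in WT, a log2 difference of 1.2999 ± 0.07 (edgeR adjusted p = 1.50e-22). It went from 150, 152 and 147 to 364, 395 and 372 CPM in STK19_KO1 (1.33) and from 228, 231 and 239 to 453, 447 and 460 in STK19_KO2 (0.96). In CSB_KO the DMSO values of 323, 319 and 330 CPM were already near those of WT with ATRi, and the ATRi values of 348, 372 and 372 gave a difference of 0.17 ± 0.07 that was not called (edgeR adjusted p = 0.0734). The cyclins behaved otherwise. CCNE2 was higher by 0.59 in WT and 0.22 in STK19_KO1, was not called in STK19_KO2 (0.01), and fell in CSB_KO by -0.66, from 63.5, 61.7 and 68.3 to 41.4, 41.7 and 39.5 CPM. CCNE1 in CSB_KO fell from 130, 137 and 135 to 82.8, 79.1 and 83.6 CPM (-0.72 ± 0.04, edgeR adjusted p = 4.46e-23), and in WT it was not called (0.07 ± 0.04, edgeR adjusted p = 0.113).

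Among the genes of helicase activation all 8 rose in WT, 5 in STK19_KO1 and 6 in STK19_KO2, and in CSB_KO 0 rose and 2 fell by edgeR. Of all tested genes 30.2%, 31.5%, 30.5% and 14.1% rose in WT, STK19_KO1, STK19_KO2 and CSB_KO, and 17.5% fell in CSB_KO. GINS3 went from 42.8, 40.6 and 42.0 to 94.9, 93.7 and 93.4 CPM in WT (1.17), and was higher by 0.70 and 0.52 in the STK19 lines and lower in CSB_KO (-0.16). All 7 polymerase and primase genes rose in WT, 6 in each STK19 line and 3 in CSB_KO. POLA1 was higher by 0.90, 0.84 and 0.65 in WT, STK19_KO1 and STK19_KO2 and was not called in CSB_KO (0.10). POLE2 rose in all 4 lines, by 0.99, 0.45, 0.82 and 0.50, and went from 13.5, 12.6 and 14.3 to 25.7, 26.7 and 27.9 CPM in WT.

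Among the genes of the clamp, its loader and RPA, 4 of 9 were higher and 2 lower in WT and in each STK19 line. Of all tested genes 30.2%, 31.5% and 30.5% were higher and 33.7%, 30.1% and 27.7% lower in WT, STK19_KO1 and STK19_KO2. RPA1 (chr17:1829702-1900082) was the single gene that fell in all 4 lines, by -0.39 ± 0.04, -0.10, -0.49 and -0.49, and its values in WT were 181, 171 and 175 CPM with DMSO and 140, 134 and 129 with ATRi. PCNA was not called in WT (-0.13 ± 0.07, edgeR adjusted p = 0.0888). It fell in CSB_KO from 519, 547 and 518 to 309, 311 and 313 CPM (-0.76), in STK19_KO1 from 656, 635 and 698 to 479, 495 and 479 (-0.45) and in STK19_KO2 from 607, 594 and 587 to 416, 440 and 437 (-0.47). In CSB_KO the ATRi values of PCNA were below its own values at 0 h, which were 326, 334 and 339 CPM. RRM2 was higher by 0.51 in WT and 0.35 in STK19_KO1 and was not called in STK19_KO2 (0.09) or CSB_KO (-0.05), and UHRF1 was higher by 0.65, 0.58 and 0.42 in WT, STK19_KO1 and STK19_KO2. ORC4 fell in WT (-0.30) and STK19_KO1 (-0.29), against the direction of most licensing genes.

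With ATRi at 20 h 8 genes rose in every line, namely MCM3, MCM7, POLA2, POLD3, POLE2, RFC2, RFC5 and RPA2. A further 24 rose in exactly 3 lines, and of these ORC1 and GINS3 fell in the remaining line, CSB_KO. The relation to span seen after UV was weak here, with a Spearman's rho of -0.17, 0.18, -0.04 and -0.03 across the 50 genes in WT, CSB_KO, STK19_KO1 and STK19_KO2 and of -0.12, 0.04, 0.04 and 0.03 across all tested genes.

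**Figure D5:**
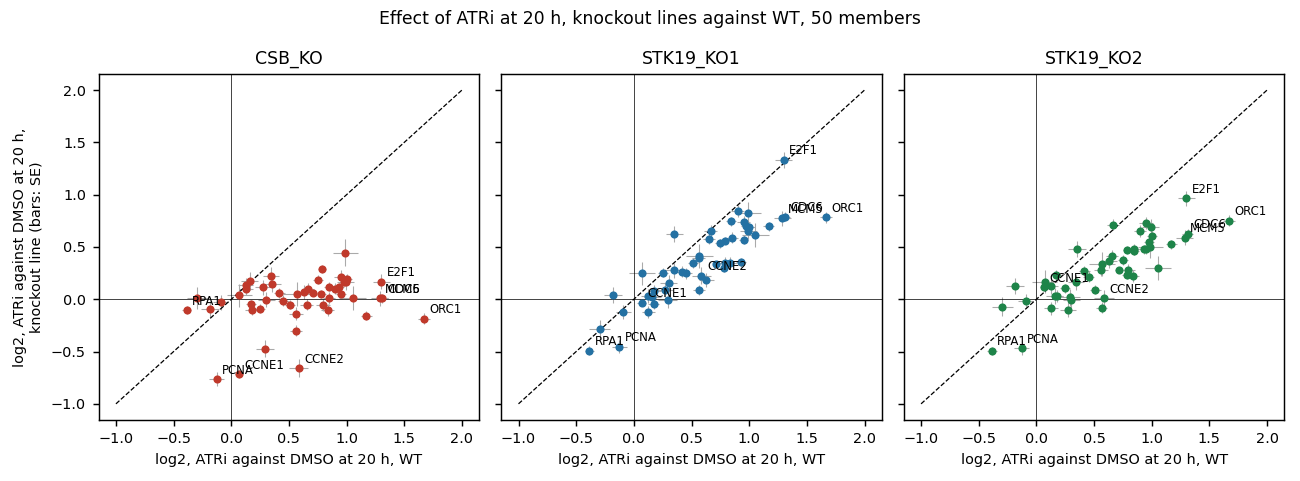
Log2 difference between ATRi and DMSO at 20 h in each edited line (vertical) against that in WT (horizontal) for the 50 genes, with bars for the standard error and a dashed line of equality. Most points lie below the line, and in CSB_KO most lie near 0, with ORC1 at -0.18 against 1.67 in WT and CCNE1, CCNE2 and PCNA at -0.72, -0.66 and -0.76.

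The difference in the ATRi effect between lines was tested directly. It was lower in CSB_KO than in WT for 39 of the 50 (26.9% of all tested genes) and higher for 1 (24.7%), with a median of -0.64 against 0.02 over all genes. For the STK19 knockouts it was lower for 33 (20.2%) and higher for 1 (20.7%), with a median of -0.26 against 0.02. ORC1 differed by -1.85 (edgeR adjusted p = 1.68e-28) in CSB_KO and by -0.90 (edgeR adjusted p = 2.69e-17) for STK19, and CDC6 by -1.30 and -0.60. GINS3 in CSB_KO differed by -1.33 and MCM5 for STK19 by -0.61. The single gene with a higher difference was RPA1 in CSB_KO (0.28) and RFC4 for STK19 (0.27). The DMSO libraries at 20 h enter both this test and the change at 20 h, so the 2 sets of values are not independent.

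Promoters with the E2F letters were set beside those without. With ATRi at 20 h in WT 11 of the 13 genes with the letters rose, with a median log2 difference of 0.79, and 23 of the 29 without them rose and 3 fell, with a median of 0.56. In STK19_KO1 10 of 13 and 19 of 29 rose, in STK19_KO2 10 of 13 and 18 of 29, and in CSB_KO 2 of 13 and 5 of 29. Of the 29 without the letters 3, 2 and 7 fell in these lines, and 0 of the 13 with them by edgeR. Of all tested genes 30.2%, 31.5%, 30.5% and 14.1% rose in WT, STK19_KO1, STK19_KO2 and CSB_KO. At 20 h DMSO the median changes with and without the letters were 0.02 and 0.05 in WT and -0.14 and 0.15 in CSB_KO. They were -0.21 and -0.02 in STK19_KO1 and -0.05 and 0.23 in STK19_KO2. At 3 h these medians were 0.13 and 0.22 in WT and 0.16 and 0.14 in CSB_KO. In STK19_KO1 they were -0.001 and 0.003 and in STK19_KO2 -0.10 and 0.03. These counts and medians describe the lists, and the absence of the letters says only that they are not in this window.

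A further 5 lists from the same biology were read beside the 50 genes. With ATRi at 20 h in WT 16 of 24 other replication fork genes rose and 5 fell, from RECQL4 (1.05) and TIPIN (1.09) to POLD4 (-1.64). Of 22 E2F, RB and S phase entry genes 15 rose and 6 fell, with E2F8 at 1.75 and DTL at 1.47 against RBL2, an RB family member, at -1.25. Of 17 other nucleotide synthesis genes 11 rose and 1 fell, with thymidine kinase TK1 at 0.95 and PAICS at -0.13, and of 12 other chromatin genes 9 rose and 2 fell, with CDCA7 at 1.05 and RBBP4 at -0.48. In CSB_KO the same 4 lists had 4 and 3, 5 and 5, 2 and 2, and 3 and 2 genes that rose and fell, in STK19_KO1 14 and 4, 14 and 6, 10 and 2, and 8 and 1, and in STK19_KO2 12 and 3, 13 and 5, 12 and 2, and 7 and 1. Of all tested genes 30.2%, 14.1%, 31.5% and 30.5% rose and 33.7%, 17.5%, 30.1% and 27.7% fell, over WT, CSB_KO, STK19_KO1 and STK19_KO2.

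Of 28 mitotic genes 4 rose and 17 fell with ATRi at 20 h in WT, with NUSAP1 at 0.56 and CCNB1, which encodes cyclin B1, at -0.95, while the counts were 1 and 12 for CSB_KO, 7 and 18 for STK19_KO1, then 7 and 11 for STK19_KO2. The shares of all tested genes, in the same order of lines, were 30.2%, 14.1%, 31.5% and 30.5% rising and 33.7%, 17.5%, 30.1% and 27.7% falling. The summed level of the mitotic genes in WT was 5330 to 5527 CPM with DMSO and 4743 to 5130 with ATRi, and in CSB_KO 4640 to 4840 and 4287 to 4324. In STK19_KO1 it was 6181 to 6228 and 5934 to 6428, and in STK19_KO2 5755 to 5961 and 5988 to 6371. In RNA from whole cultures a change in the share of cells in S phase and a change of RNA per cell cannot be told apart, and the part of the cell cycle in these differences was not tested.

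At 3 h after UV mitotic genes fell in 17, 19, 22 and 25 of 28 cases and rose in 4, 4, 3 and 1, over WT, CSB_KO, STK19_KO1 and STK19_KO2, and KIF23, a kinesin of cytokinesis, fell by -1.17 in WT. Of all tested genes 28.5% to 30.6% fell and 29.1% to 33.6% rose at 3 h over the lines. Of the 22 E2F, RB and S phase entry genes 8, 4, 4 and 5 rose and 10, 13, 15 and 14 fell, with the activator E2F3 at -1.42 in WT and -2.21 in CSB_KO and the CDK inhibitor CDKN1A between 0.73 and 1.01. Other replication fork genes rose in 11, 11, 10 and 10 and fell in 8, 8, 9 and 10 of 24 cases, with POLE3 at 0.88 and MTBP at -0.76 in WT. At 20 h DMSO the E2F and RB list rose in 9, 11, 11 and 11 and fell in 7, 9, 10 and 8 cases. Of all tested genes 30%, 38.3%, 32.1% and 33.8% rose there and 25.4%, 40.5%, 37% and 37.8% fell, in the same order of lines. In CSB_KO E2F2 and E2F8 rose by 1.86 and 1.84 there and RBL1 and RBL2 fell by -1.85 and -1.88, while the primase subunit PRIM2 fell by -2.14 and POLE3 rose by 1.68.

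At 0 h in the edited lines these lists moved less. Other replication fork genes were higher in 4, 10 and 7 and lower in 3, 4 and 4 of 24 cases in CSB_KO, STK19_KO1 and STK19_KO2. E2F, RB and S phase entry genes were higher in 5, 7 and 7 and lower in 6, 3 and 7 of 22, and mitotic genes were higher in 3, 12 and 5 and lower in 2, 3 and 6 of 28. Of all tested genes 19.1%, 29.5% and 26.6% were higher and 15.7%, 19.2% and 20.7% lower, in the same order of lines.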

How the data were processed

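Polyadenylated RNA was sequenced in 72 libraries. A Qiagen RNeasy kit served for extraction, per the labels' protocols, and the NEBNext Ultra II Directional kit for library preparation. Per the submitters' processing notes, STAR, RSEM and the build GRCh38 were used, and deepTools 3.5.1 for coverage tracks, which were not used here. The deposited table holds expected counts per gene, all already whole numbers and not normalised, and their versions and gene annotation are not given in the sources used here. Each column of the table carries the name of 1 sample.

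Genes were kept by filterByExpr of edgeR 4.0.16 (R 4.3.3; minimum count 10, minimum total 15), which left 15470 of 19324 genes and all 50 described. Library sizes were 36.5 to 212.9 M counts, scaled by TMM with factors of 0.857 to 1.125. All libraries entered 1 quasi-likelihood fit with a coefficient for each of 24 groups, and p-values were adjusted over all tested genes in each of 29 contrasts. The script was tested on simulated data. The genes and lists were chosen with earlier results of these data known. CCNE1, CCNE2, E2F1, CDC6, CDT1, MCM2, PCNA, RRM2, POLA1 and UHRF1 were always to be named. For each comparison the top 5 and bottom 5 genes by mean change over lines were added, with 3 each way for each knockout and each difference between lines, and up to 2 each way in the other lists. A few more are named where they belong to a count or show a role, and these were chosen after their values were seen. Alternatives were other scalings, no filter, a replicate block, leaving out each replicate, fitting only the lines compared, DESeq2 1.42.0, and, chosen after seeing the data, leaving out the 5 libraries that stood apart. Replicate numbers were not treated as pairs.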

Additional observations from a re-analysis of the deposited data

Results flagged for a closer look

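Each value here is a difference between lines in the same contrast (edited line minus WT, log2), tested by an interaction contrast in edgeR over all genes, with adjusted p-values.

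In the change at 3 h, CSB_KO differed from WT in DBF4 by -0.73 (adjusted p = 6.49e-06), in CCNE1 by -0.63 (adjusted p = 6.82e-14) and in RPA3 by -0.57 (adjusted p = 0.0108). The mean of the STK19 knockouts differed in RPA3 by -0.53 (adjusted p = 0.00248), in ORC3 by -0.46 (adjusted p = 1.12e-05) and in POLE2 by -0.40 (adjusted p = 0.0186). Without the libraries that stood apart RPA3 was at -0.27 and -0.28 and POLE2 at -0.19, which was not called.

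In the change at 20 h with DMSO, CSB_KO was below WT in ORC5 (-2.48), ORC4 (-1.89) and PRIM1 (-1.77) and above it in FEN1 (1.65), E2F1 (1.45) and CCNE1 (1.34), with adjusted p-values of 5.10e-28, 5.46e-19, 3.19e-23, 8.35e-28, 1.72e-18 and 2.81e-30. The STK19 knockouts were below WT in POLA1 (-1.30), PRIM1 (-1.21) and ORC5 (-1.03) and above it in FEN1 (1.09), PCNA (0.86) and ORC6 (0.79), with adjusted p-values of 5.17e-24, 1.47e-18, 4.48e-15, 7.43e-22, 9.66e-14 and 1.56e-15.

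In the ATRi effect at 20 h, CSB_KO was below WT in ORC1 (-1.85), GINS3 (-1.33) and CDC6 (-1.30) and above it in RPA1 (0.28), with adjusted p-values of 1.68e-28, 2.94e-24, 5.71e-25 and 2.33e-05. The STK19 knockouts were below WT in ORC1 (-0.90), MCM5 (-0.61) and CDC6 (-0.60) and above it in RFC4 (0.27), with adjusted p-values of 2.69e-17, 7.52e-08, 6.85e-14 and 0.0211.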

How the results depend on the processing

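Over all 29 contrasts 882 calls were made among the 50 genes. Of these, 867 were kept with RLE scaling, 809 with upper quartile scaling, 759 with library totals alone, 851 with no filter on low counts, 823 when only the lines compared were fitted, 874 with DESeq2 and 861 without the libraries that stood apart. Leaving out replicate 1, 2 or 3 of every group kept 849, 742 and 759. With a replicate block all 882 were kept and 37 were gained. Same-numbered libraries had a median correlation of deviations of 0.0156 over 180 pairs (8 over 0.1). Of these 8, 7 were in WT, and the highest, 0.256, was between replicate 1 of WT at 3 h and at 0 h. The causes of the changes listed next were not tested.

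Leaving out each replicate in turn gave 12 to 20 called genes for CSB_KO at 0 h (19 with all), 0 to 4 for ATRi at 4 h in WT (1 with all) and 0 to 2 in CSB_KO (1 with all), 8 to 21 for ATRi at 20 h in CSB_KO (17 with all), and 6 to 11 and 17 to 22 for the difference at 3 h in CSB_KO (11 with all) and in the STK19 knockouts (27 with all). For ATRi at 4 h the count was 3 in WT with library totals alone, 10 without the libraries that stood apart and 0 with only the lines compared, and in CSB_KO 0 with upper quartile scaling, library totals alone or no filter, 3 without the libraries that stood apart and 2 with only the lines compared. For ATRi at 20 h in CSB_KO it was 28 without those libraries and 26 with only the lines compared. The difference at 3 h for STK19 was called for 10 genes with library totals alone. With that scaling POLA1 at 3 h in WT (0.13) became -0.0762 and the difference of UHRF1 at 20 h in CSB_KO became -0.0508. The count for ATRi at 20 h in WT stayed between 40 and 47 over all these alternatives.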
